A study of Xenopus tropicalis with 3 samples.

Results

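The regions described here are focal peaks of open chromatin at the ends of protein-coding genes in the urostyle of Xenopus tropicalis at stage 65. A peak was taken as focal when it lay on chromosomes 1 to 10, its summit fold over background was from 4 to below 8, and it was narrower than 1500 bp. It was placed at a gene end when its summit lay within 500 bp of an annotated end of a protein-coding gene of the UCB_Xtro_10.0 gene table, and peaks within 3 Mb of a chromosome's start or last peak were left out. Of 311625 peaks in the stage 65 list, 70373 had such a fold on these chromosomes, 53042 of those were narrow enough, 49937 lay away from chromosome ends, and 3109 met the whole rule. They were 0.998% of the list and 6.23% of the focal peaks (95% interval 6.01 to 6.44).

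The urostyle is a bony rod behind the sacrum of frogs that forms while the tadpole tail is lost. The series holds 1 ATAC-seq library from each of stages 56, 61 and 65, and only the stage 65 library was used for these regions, as its list alone has coordinates of the kind the gene table gives. Per the labels, tissue was dissected on ice from anesthetized tadpoles and crushed before transposition. The labels give no genotype, treatment or number of animals, and the design text speaks of laser capture, so how the tissue was isolated is not settled by them. With 1 library there is no replicate and no test, so every interval below is an exact or log-scale 95% interval that covers counting error only.

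In ATAC-seq a transposase inserts adapters into DNA that is not wrapped on nucleosomes, and sites with many insertions are called as peaks. Promoters of genes ready for transcription are usually kept free of nucleosomes by bound transcription factors and by the transcription machinery, and promoters of widely expressed genes are open in most tissues. Enhancers, which often lie away from promoters, tend to be open in fewer cell types. Skeletal tissue of this age holds chondrocytes, bone-forming cells, osteoclasts, connective tissue, vessels, blood, nerve and muscle, so a bulk library mixes their chromatin. A site open in few cells and a site weakly open in many cells cannot be told apart in it.

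The gene table has no strand, so an end may be a gene's start or its finish. Positions are therefore given as inside or outside the gene, and no site is called a promoter. No genome sequence was used here, and no sequence is shown.

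The folds of the members ran from 4.04 to 7.94 with a median of 4.64 and quartiles of 4.19 and 5.24. Most peaks narrower than 1500 bp and away from chromosome ends had lower folds. They numbered 36772 under a fold of 2.5, 84898 from 2.5 to 3 and 86910 from 3 to 4. Against these stood 49937 from 4 to 8 and 4109 of 8 and over. The deposited folds rise in even steps of 0.150, so each could be read back as a whole number at the summit. The unit is called a fragment here, although whether it is a fragment or a single read is not given. The members had 26 to 52 fragments with a median of 30, over a background of 5.68. A count of 26 carries an exact Poisson interval of 17.0 to 38.1 and a count of 52 one of 38.8 to 68.2. The order of members that differ by a few fragments is thus not resolved. A fold of 5.24, the upper quartile, stands for 34 fragments and lies within the interval of the lowest member. The −log10 q ran from 8.73 to 30.4, and the widths from 278 to 1499 bp with a median of 791 bp.

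The members were selected on their own fold, width and distance from a gene end, so the values next to each limit are a description only. At gene ends, 547 otherwise matching peaks had the fold just under the lower limit (3.89) and 434 the fold just over it (4.04). At the upper limit, 4 had a fold of 7.94 and 4 a fold of 8.09. Peaks 1400 to 1499 bp wide numbered 153, and those 1500 to 1599 bp wide numbered 124. Summits 401 to 500 bp from an end numbered 448, and those 501 to 600 bp away 420. Counts changed little across the limits of width and distance, so the rule cuts a continuous range.

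The rule used the distance of a summit from a gene end but not its side, and the side was uneven. Of 3109 members, 2146 had the summit inside the gene of the nearest end (69.0%, 67.4 to 70.7). The interval of the peak crossed that end in 2281 members (73.4%), and a typical peak reached 488 bp into the gene and 248 bp out of it (medians). The median distance from the end was 218 bp for summits inside and 214 bp for those outside. Summits on either side had a median fold of 4.64, and median widths were 790.5 bp inside and 793 bp outside.

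Counted around all 40323 searched gene ends, focal summits were densest from 100 to 300 bp inside the gene. There were 542 summits at 200 to 300 bp inside and 541 at 100 to 200 bp inside, 3.18 and 3.17 times the density found 5 to 10 kb from the same ends. From 0 to 100 bp inside there were 458, and from 0 to 100 bp outside 296. Just beyond the end the number fell off quickly, to 219 at 100 to 200 bp outside, which was 1.28 times the flanking density. At 1 to 2 kb the ratio was 0.992 inside and 1.07 outside, close to the flanks. Over 500 bp to each side there were 2224 summits inside and 1133 outside, 66.2% inside when every end is counted. The density was 2.70 times the flank on the inside (2.58 to 2.83) and 1.29 times on the outside (1.21 to 1.37). Ends at the lower and at the upper coordinate of a gene, which mix starts and finishes alike, gave the same picture. A summit lay inside at 5.63% of lower ends (5.32 to 5.96) and 5.40% of upper ends (5.09 to 5.72), and outside at 2.72% and 2.90%.

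**Figure D1:**
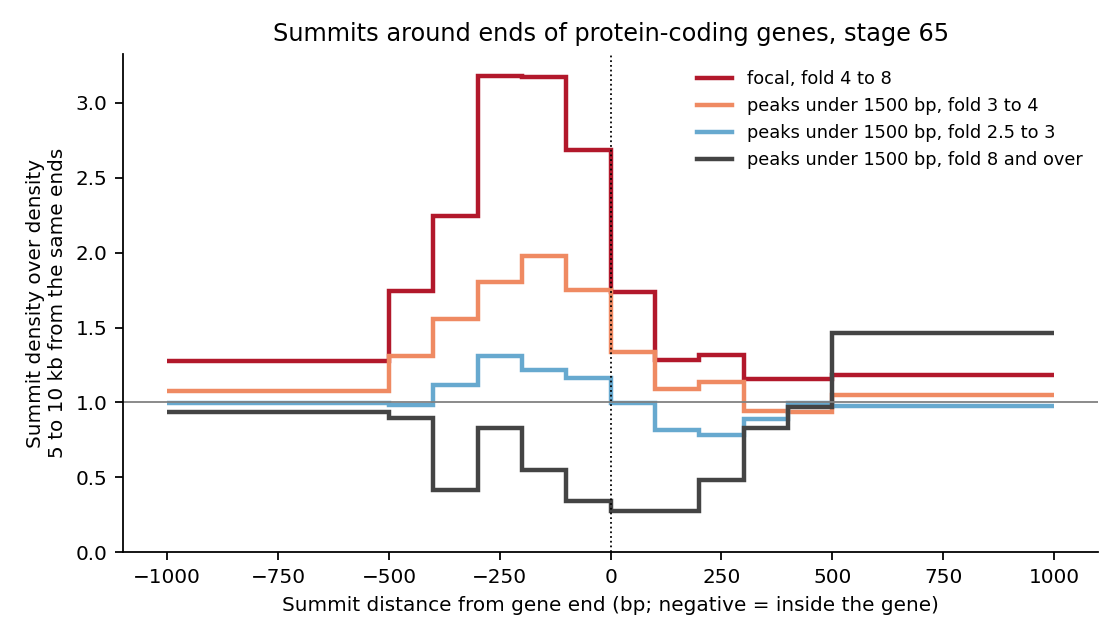
Density of peak summits against distance from the end of a protein-coding gene (bp, negative inside the gene), divided by the density 5 to 10 kb from the same ends, for 4 fold classes of peaks under 1500 bp at stage 65. The line for folds of 4 to 8 stands at 3.18 from 200 to 300 bp inside and at 1.28 from 100 to 200 bp outside, while that for folds of 8 and over lies below 1 on both sides out to 500 bp.

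Narrow peaks of lower fold, which the rule did not take, also lay more often inside, with a smaller inside density than the members as a whole. Of narrow peaks with folds of 3 to 4, 60.8% of the summits near an end lay inside (59.2 to 62.3), and the inside density was 1.72 times the flank (1.65 to 1.80). At folds of 2.5 to 3 the corresponding values were 56.4% and 1.17 (1.11 to 1.24), and below 2.5 they were 54.2% and 0.917 (0.838 to 1.00). Among narrow peaks, the excess at gene ends thus grew with fold up to a point. Within the members it was 2.68 on the inside for folds of 4 to 5, 3.25 (2.95 to 3.58) for folds of 5 to 6 and 2.24 (1.84 to 2.73) for folds of 6 to 7. For folds of 7 to 8 it was 1.30, with an interval from 0.956 to 1.77 that includes 1. On the outside the density was 1.32 times the flank for folds of 4 to 5 and 1.36 times for folds of 5 to 6. It was 0.970 (0.748 to 1.26) for folds of 6 to 7 and 0.955 (0.678 to 1.34) for folds of 7 to 8. Narrow peaks with folds of 8 and over were rarer at gene ends than in the flanks, at 0.628 inside (0.465 to 0.849) and 0.560 outside (0.409 to 0.767), and 52.3% of their summits near an end lay inside, with an interval from 41.3 to 63.2 that includes an even split. The upper part of the fold range therefore held few of the members, 7.98% with folds of 6 to 8 against 11.7% of the other focal peaks. Folds of 5 to 6 made up 22.97% of members and 19.9% of the others. Peaks with folds of 8 and over and widths of 1500 bp or more were not counted against the flanks.

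Width behaved alike. Among peaks with folds of 4 to 8, the inside density was 2.01 times the flank for widths under 500 bp (1.81 to 2.24) and 3.17 times for 750 to 1000 bp (2.88 to 3.48). For peaks of 1500 to 2000 bp, which the rule leaves out, it was 2.43 (2.15 to 2.75), not below that of the narrowest members, and for still wider ones 1.69 (1.47 to 1.94). The limit of 1500 bp therefore does not mark where the excess ends. The share inside was between 61.0% and 69.1% in every width class.

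**Figure D2:**
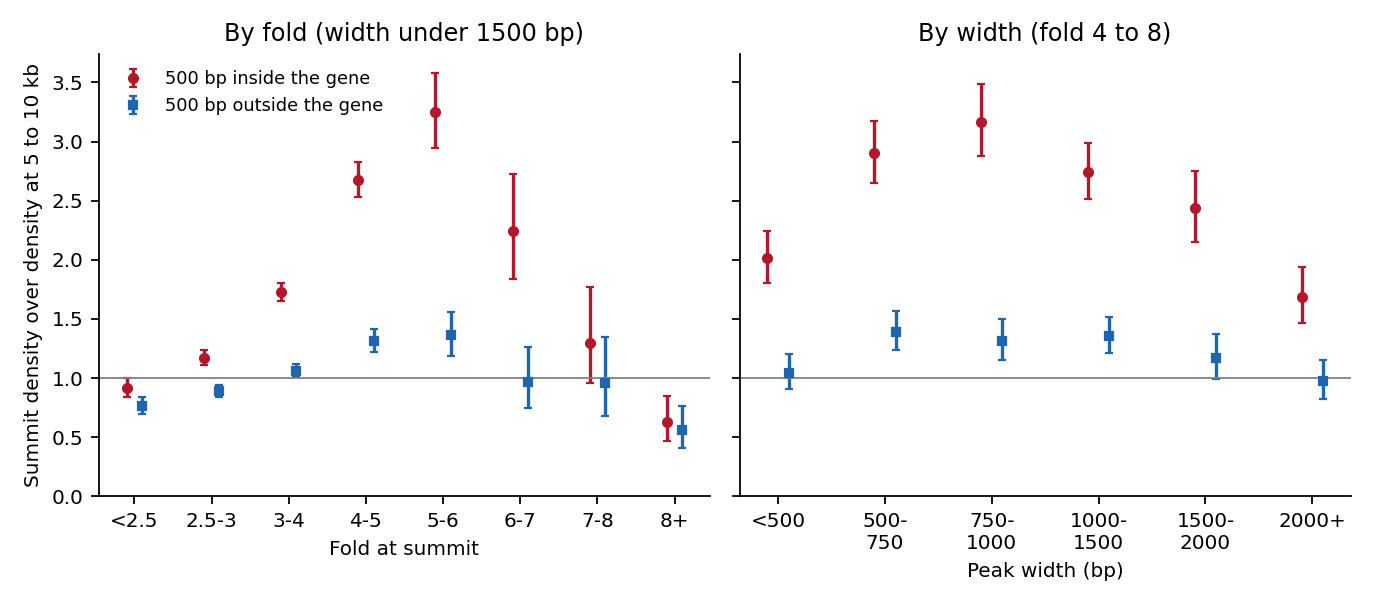
Summit density in the 500 bp inside (circles) and outside (squares) a gene end, divided by the density 5 to 10 kb away on the same side, by fold for peaks under 1500 bp (left) and by width for folds of 4 to 8 (right), with 95% intervals for counting error. The inside values rise from 0.917 under a fold of 2.5 to 3.25 at folds of 5 to 6 and drop to 0.628 at 8 and over.

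Set beside other focal peaks, the members were slightly wider and slightly closer to the nearest other peak. Their median width was 791 bp (quartiles 562 and 1071), against 751 bp for 13161 focal peaks inside genes and over 10 kb from any end, and 756 bp for 6952 focal peaks over 50 kb from any gene. The nearest other summit of the whole list lay at a median of 1823 bp from members, 1975 bp from the deep genic peaks and 2124 bp from those far from genes. The number of other peaks within 10 kb was the same for members and deep genic peaks, with a median of 5 and quartiles of 3 and 6. For peaks far from genes the median was 4. The quartile ranges overlapped widely, and no test was made.

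The next question was which gene ends carried a member. Focal summits were found at 3349 of 40323 searched ends (8.31%), against 4.23% of windows of the same size centred 7.5 kb away. The share varied with the distance to the next gene, and not in one direction. Where another protein-coding gene began or finished within 200 bp, 7.80% of ends had a focal summit on their own gene's side (6.51 to 9.26). With the next gene 500 to 1000 bp away it was 3.08% (1.99 to 4.55), at 2 to 5 kb 4.35% (3.85 to 4.89), and at 20 to 50 kb 6.54% (5.97 to 7.16). Over all ends it was 5.52%. Crowded ends and lone ends were thus both occupied more often than ends with a neighbour at intermediate distance. Flanking windows did not follow this order, with 3.15% for the closest ends, 4.69% at 500 to 1000 bp and 3.88% at 20 to 50 kb. These windows are as wide as both sides of an end together, so they do not compare directly with the shares on the gene's side. Over both sides, the shares of ends in these classes were 16.9%, 6.43% and 8.94%, each above its flanking windows.

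On the outer side the share was 9.17% for the closest ends. It fell to 2.12% at 1 to 2 kb and stayed from 2.19% to 2.66% beyond 5 kb. The 500 bp outside the closest ends reach into the neighbouring gene. The part this has in the 9.17% was not tested. Of the members, 218 were shared by ends of 2 genes and 2891 belonged to a single gene. No member reached 3 genes.

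**Figure D3:**
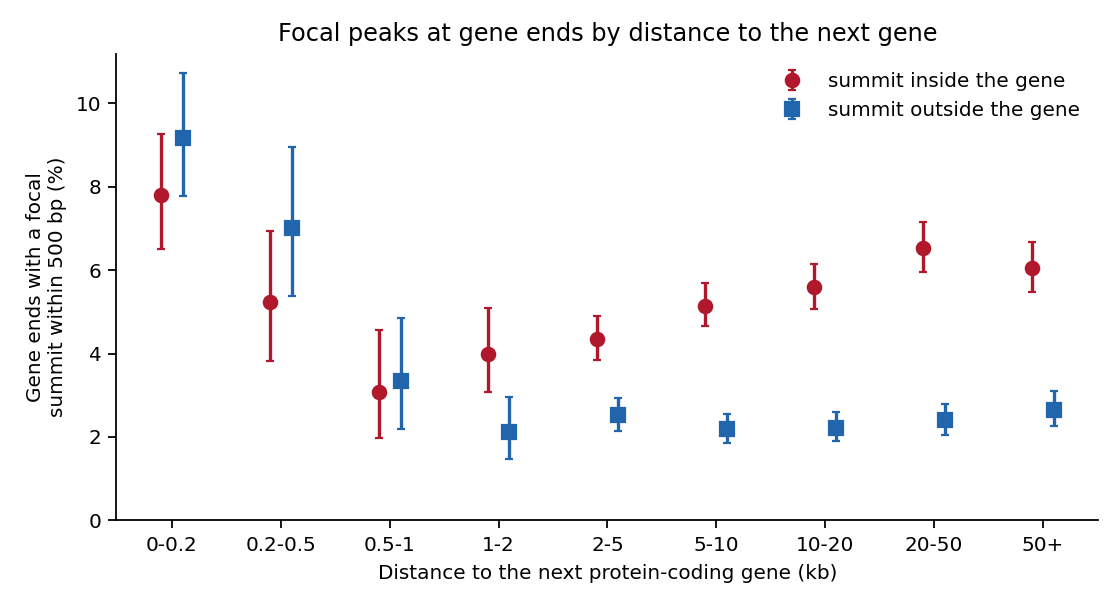
Share of gene ends (%) with a focal summit within 500 bp, on the gene's own side (circles) or outside it (squares), against the distance to the next protein-coding gene (kb), with exact 95% intervals. The inside share is 7.80% under 0.2 kb, 3.08% at 0.5 to 1 kb and 6.54% at 20 to 50 kb.

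Among neighbours that both carry a gene symbol and face each other across less than 1000 bp, 132 pairs shared a member. The number of all such pairs is not given here, so the 132 carries no share. Of ends with the next gene within 200 bp, 16.9% had a focal summit on either side, against 8.31% of all ends. The summit lay between the genes in 34 pairs and inside 1 of the 2 genes in 98. For most pairs the gap is shorter than the 500 bp searched inside each gene, so this split does not show a preferred side. The highest fold, 7.04 with 46 fragments, was in the 118 bp pair of lins1 and asb7, which encodes a substrate adaptor of a ubiquitin ligase, on chromosome 3 at 115566876 to 115567522, with the summit inside asb7. The parvins parvg and parvb, adaptors that link integrins to actin, face each other across 844 bp on chromosome 3. Their shared peak at 4349141 to 4349782 had a fold of 6.89 and its summit between the genes. A peak with a fold of 6.59 joined rgs9bp and ankrd27 across 89 bp, with the summit inside rgs9bp. A peak with a fold of 6.44 joined ppwd1, a peptidyl-prolyl isomerase gene, and cenpk, which encodes a kinetochore protein, across 45 bp with the summit inside cenpk. Next, 3 pairs tied at a fold of 6.29 with 41 fragments. A peak joined the tRNA-modifying enzyme gene dus3l and pttg1ip.2 across 152 bp with the summit inside dus3l, and another joined esf1 and ndufaf5 across 26 bp with the summit inside ndufaf5. The summit shared by rwdd1 and arsa.1, which are 139 bp apart, lay between the genes.

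A gene usually carried a member at a single end. Of 20155 genes with both ends searched, 3141 had a focal peak at 1 end and 103 at both. Given a member at an end, the other end also had a member in 6.16% of cases, against 8.30% of all ends. For genes longer than 2000 bp, where a single peak cannot reach both ends, the values were 4.40% and 8.47%. Occupied ends thus met in the same gene less often than their overall share. Of the 103 genes, 61 had a symbol, and in 2 of these a single peak served both ends. Such a case was h4c3, a histone H4 gene 392 bp long, with a fold of 5.69. The other genes with the highest lower fold were usp5, a deubiquitinase gene (6.74 at the lower and 5.69 at the upper end), phactr3 (6.29 and 5.54), sun2, which encodes a protein of the inner nuclear membrane (5.24 and 6.74), and capn15 (5.09 at both).

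From 2 kb upwards, longer genes had more members on the inside. The share of ends with a focal summit inside was 4.57% in genes under 2 kb (3.82 to 5.43), 3.99% in genes of 2 to 5 kb (3.44 to 4.60), 4.48% at 5 to 10 kb, 4.93% at 10 to 20 kb, 6.22% at 20 to 50 kb, 7.50% at 50 to 100 kb and 7.65% above 100 kb (6.72 to 8.66). The outside share did not rise with length in this way. It was 1.59% in genes under 2 kb (1.15 to 2.13) and from 2.48% to 3.25% in the other 6 classes. The flanking windows, as wide as both sides of an end together, had 4.96% in genes of 2 to 5 kb and 3.51% above 100 kb. Over both sides, the shares of ends in these classes were 7.2% and 10.4%. For short genes the inner flanking window lies beyond the gene. In genes shorter than the 500 bp searched, a summit past the far end can count as inside. A single peak can also count at both ends of such a gene.

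Genes with a symbol and genes known only by a LOC number differed in the same direction in each of 3 length classes. Ends of the former had a focal summit in 9.48% of cases (9.15 to 9.82) and ends of the latter in 5.16% (4.76 to 5.59), with 4.10% and 4.59% in the flanking windows. In genes of up to 5 kb the shares were 8.23% and 5.85%, from 5 to 20 kb 8.84% and 4.38%, and above 20 kb 10.2% and 5.35%. Genes with a curated RefSeq transcript had 10.04% (9.57 to 10.5) and genes with model transcripts only 7.17% (6.85 to 7.50). Among genes with a symbol this narrowed to 10.1% and 8.74%. With the number of RefSeq transcripts per gene, the share rose from 7.69% for 1 transcript to 9.48% for 3 or 4 and 10.7% for 9 or more (8.62 to 13.2). The part that annotation quality has in these differences was not tested.

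By gene, 3246 of 20168 protein-coding genes had a member (16.1%, 15.6 to 16.6). A further 199 had no focal peak but a summit with a fold of 8 or more at an end, 801 had a wide peak with a fold of 4 to 8, and 6433 had only summits with a fold under 4. The other 9489 (47.0%) had no summit within 500 bp of an end. The lists and families below are read beside the 16.1% and carry no test. They were taken by symbol, and among genes with a symbol alone the share was 18.5% (17.9 to 19.2). The rule itself chose on this contrast, so a share above or below it is a description. Of 265 listed genes in 20 lists of skeletal, other tissue and signalling genes, 222 were found by symbol with an end in the searched part, and 41 had a member (18.5%). The summit was inside the gene in 27 of the 41. In 35 gene families taken by symbol, 242 of 1343 genes had a member (18.0%), 148 with the summit inside. The peak also lay at an end of another gene for 3 of the 41 listed genes and 43 of the 242 family genes, and which gene it serves was not tested.

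**Figure D4:**
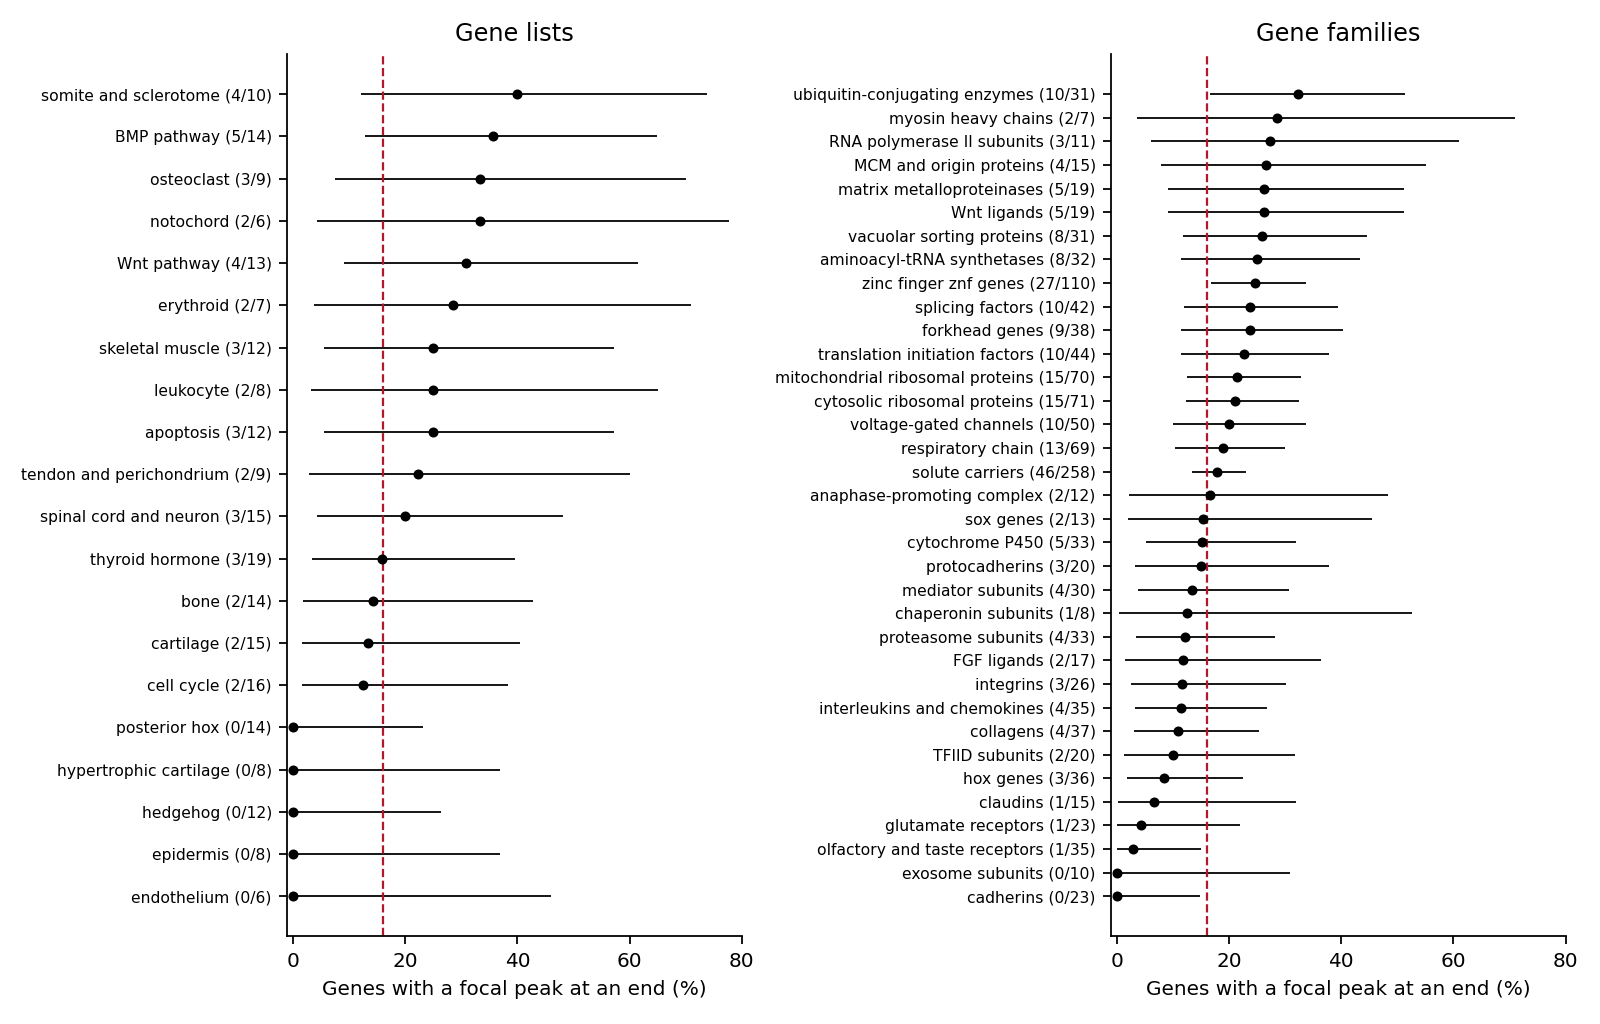
Share of measured genes (%) with a focal peak at an end for 20 gene lists (left) and 35 families (right), with exact 95% intervals and, in brackets, genes with a peak over genes measured. The dashed line is the share over all protein-coding genes, 16.1%. The interval of every list and of 31 families includes it. Those of ubiquitin-conjugating enzymes and znf genes lie above it, and those of cadherins and of olfactory and taste receptors lie below it. Among genes with a symbol alone the share is 18.5%, which lies within the intervals of ubiquitin-conjugating enzymes and znf genes.

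BMP signalling drives cartilage and bone formation, and its genes with members were 1 ligand, 1 receptor and 3 inhibitor genes. The BMP list thus had 5 of 14 genes with members (35.7%, 12.8 to 64.9). Its highest peak was at bmp6, a BMP ligand gene, with a fold of 7.64 and 50 fragments, on chromosome 6 at 89398092 to 89398861, with the summit 212 bp inside the gene. The inhibitory Smad gene smad6 had a fold of 7.19 (chromosome 3, 117263196 to 117264315) and the type I receptor gene bmpr1b a fold of 6.59 (chromosome 1, 76324552 to 76325221), with summits 360 and 346 bp inside. The antagonist gene grem1 had a fold of 5.69, 44 bp inside. The antagonist nog, at 4.19, was the only one of the 5 with its summit outside the gene. The gene of the other inhibitory Smad, smad7, had a wide peak in place of a focal one. The ligand gene bmp2 and the receptor genes bmpr1a and bmpr2 had only low summits, and the ligand genes bmp4 and bmp5 had none at their ends.

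The Wnt list had 4 of 13 genes with members (30.8%, 9.09 to 61.4). At tcf7l2, which encodes a nuclear effector of Wnt signalling, the fold was 7.94 with 52 fragments, the highest value the rule admits (chromosome 7, 3320687 to 3321373). Its summit lay 319 bp outside the gene. Outside gene ends, summits with folds of 7 to 8 were at 0.955 times the flanking density (0.678 to 1.34). The coreceptor gene lrp5 had 5.09, the cytoplasmic transducer gene dvl3 4.94 and apc, part of the complex that degrades beta-catenin, 4.64, with summits 70, 201 and 98 bp inside. The genes ctnnb1 (beta-catenin) and tcf7 had wide peaks instead. None of 12 hedgehog genes had a member (upper limit of the interval 26.5%). Of these, dhh and gli3 had wide peaks and 4 others only low summits.

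Thyroid hormone starts and drives metamorphosis, through receptors that sit on DNA with retinoid X partners. Of 19 genes of its pathway, 3 had a member (15.8%, 3.38 to 39.6). The peak at prmt1, an arginine methyltransferase and receptor coactivator gene, had a fold of 5.54 with 36 fragments (chromosome 7, 111005690 to 111006858), 220 bp inside. The deiodinase gene dio1 had 4.64, 95 bp outside, and the receptor gene thrb 4.19 with 27 fragments, 482 bp outside, close to the limit of the window. The response genes klf9 and thibz and the deiodinase gene dio3 had wide peaks with folds in the same range, so the width limit kept them out. Of the other genes of the list, 3 had only low summits and 10 had no summit at an end. Those without a summit include the receptor gene thra and the retinoid X receptor genes rxra, rxrb and rxrg.

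Among skeletal genes, osteoclast genes had members in 3 of 9 (33.3%, 7.49 to 70.1). At nfatc1, the transcription factor gene that directs osteoclast formation, the fold was 7.79 with 51 fragments (chromosome 6, 97516715 to 97517441), 119 bp inside. The genes tnfrsf11a, which encodes the receptor RANK, and mitf, a transcription factor gene, both had 5.09 with 33 fragments, 110 and 384 bp inside. The remaining osteoclast genes had low summits or none, including 5 with no summit at an end.

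Cartilage genes had members in 2 of 15 (13.3%, 1.66 to 40.5). The genes hapln1, whose product links aggrecan to hyaluronan, and cnmd, which encodes chondromodulin, both had 4.34 with 28 fragments. Of the other cartilage genes, 6 had only low summits, among them sox9 and matn1. A further 7, including acan and col2a1, had no summit at an end. The bone list had 2 of 14 (14.3%, 1.78 to 42.8), with 5.54 at postn, a matrix protein gene of the periosteum, and 5.24 at atf4, a transcription factor gene of osteoblast function, both with the summit outside. Of the other bone genes, 5 had only low summits, among them col1a1 and sparc. A further 7, including runx2, sp7 and bglap, had no summit at an end. None of 8 hypertrophic cartilage genes had a member, with 4 at low summits and 4 without any. Tendon and perichondrium genes had 2 of 9 (22.2%, 2.81 to 60.0). They were mkx, a tendon transcription factor gene (5.84, chromosome 6, 24668311 to 24669635), and prrx1, a mesenchymal one (4.19). The early response gene egr1 had a wide peak.

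Transcription factor genes of the somites, which give rise to vertebrae and muscle, had members in 4 of 10 (40.0%, 12.2 to 73.8). The sclerotome gene pax9 had the highest, 5.24 with 34 fragments (chromosome 8, 108603958 to 108605312), 433 bp inside. It was followed by meox2 at 4.64 and by tbx18 and uncx at 4.49 each. All but meox2 had the summit inside. Of the other genes of the list, foxc1 had a wide peak, msgn1 and twist1 only low summits, and foxc2, nkx3-2 and pax1 none. The notochord list had 2 of 6 (33.3%, 4.33 to 77.7), foxa1 at 4.79 and nog at 4.19, both outside. The gene nog is counted in the BMP list as well. Among the other notochord genes, foxa2, foxj1 and shh had only low summits and tbxt had none. None of 14 posterior hox genes had a member (upper limit 23.2%), with wide peaks at hoxa13 and hoxd8. Of 36 hox genes in all, 3 had one (8.33%, 1.75 to 22.5), among them hoxc4 (4.49) and hoxb1 (4.34).

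Lists of muscle, nerve and blood genes had members too, at shares whose intervals all include the 16.1% of all genes. Muscle genes had members in 3 of 12 (25.0%, 5.49 to 57.2), at tnni2, a fast troponin gene (5.69), ryr1, the calcium release channel gene (4.94), and ckm, the muscle creatine kinase gene (4.64). Neuronal genes had them in 3 of 15 (interval 4.33 to 48.1%), at stmn2 (4.94), gap43 (4.79) and the motor neuron factor gene mnx1 (4.34), all inside. Erythroid genes had 2 of 7 (28.6%, 3.67 to 71.0), the haem synthesis gene alas2 (4.34) and nfe2 (4.04). Leukocyte genes had 2 of 8 (25.0%, 3.19 to 65.1), cebpa (4.94) and spi1 (4.49). The other measured genes of these lists had only low summits or none, such as acta1, myog, elavl3, elavl4, epor, hba1, csf1r and ptprc. The peaks of ryr1, nfe2 and spi1 are shared with a neighbouring gene. That of spi1 has its summit 101 bp outside spi1 and 40 bp inside the zinc transporter gene slc39a13, and that of nfe2 lies between the genes, 78 bp from nfe2 and nearer to copz1. None of 8 epidermal and none of 6 endothelial genes had a member, which with so few genes still allows shares of up to 36.9% and 45.9%. A peak at a gene end is no measure of expression, so the presence of these cell types was not judged from them.

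Genes of cell death and division had shares of 25.0% (3 of 12) and 12.5% (2 of 16). The former were mcl1, a survival protein gene (5.09), cycs, the cytochrome c gene (4.64), and apaf1, which encodes the core of the apoptosome (4.19). The latter were plk1, a mitotic kinase gene (5.09), and ccna2, a cyclin gene (4.19). All 5 had the summit inside the gene.

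Families of broadly used genes had shares from 0% to 32.3%. Ubiquitin-conjugating enzymes had 10 of 31 (32.3%, 16.7 to 51.4), led by ube2q2 at 5.69 and by ube2b and ube2e2 at 5.09. Cytosolic ribosomal protein genes had 15 of 71 (21.1%, 12.3 to 32.4), led by rps24 (5.69), rps12 (5.54) and rpl5 (5.39). Mitochondrial ribosomal protein genes had 15 of 70 (21.4%, 12.5 to 32.9), led by mrps6 at 6.74 with 44 fragments (chromosome 2, 14288234 to 14288639). These intervals overlap widely, so the order of the families is not resolved.

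Respiratory chain genes had members in 13 of 69 (18.8%, 10.4 to 30.1). The highest was atp5f1a, which encodes the alpha subunit of ATP synthase, with 7.34 and 48 fragments (chromosome 1, 206716656 to 206717970) and the summit 220 bp outside. It was followed by cox5a at 6.74 and ndufb1 at 5.84, subunits of complexes IV and I. Translation initiation genes had 10 of 44 (22.7%, 11.5 to 37.8), with 7.04 at eif4b. The symbol pattern also took the binding protein gene eif4ebp2 (6.44) and the kinase gene eif2ak4. The peaks of ndufb1 and eif4b were shared with a neighbouring gene. Splicing factor genes had 10 of 42 (23.8%, 12.1 to 39.4), led by the SR protein genes srsf6 (5.99), srsf2 (5.69) and srsf7 (4.94).

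Aminoacyl-tRNA synthetase genes had members in 8 of 32 (25.0%), with 5.24 at wars1, whose peak was shared with a neighbour, and 5.09 at gars1 and tars1. Mediator genes had 4 of 30 (13.3%), among them med13l at 7.34, proteasome genes 4 of 33 (12.1%), led by psmb6 at 5.84, and genes with TFIID-type symbols 2 of 20. These were the TFIID gene taf10 and taf5l, which encodes a subunit of the SAGA coactivator and not of TFIID. The peak of taf5l was shared with a neighbour. Genes with vacuolar sorting symbols had 8 of 31 (25.8%), with 6.59 at vps36 and including vps72, whose product belongs to a chromatin remodelling complex, and RNA polymerase II subunit genes 3 of 11. Genes of MCM and origin recognition proteins had 4 of 15 (26.7%, 7.79 to 55.1). They were the origin recognition genes orc6 (4.49) and orc3 (4.04), and mcm8 and mcm9, which act in recombination repair. The peaks of orc6, orc3 and mcm8 were shared with a neighbour, that of mcm8 with its summit inside the neighbour trmt6. None of the genes mcm2 to mcm7, which encode the helicase that licenses DNA replication, had a member. Of these, mcm3, mcm5 and mcm7 had low summits at an end, and mcm2, mcm4 and mcm6 had none. They were picked out after their values were seen and are too few to set apart from the share of all genes. None of 10 exosome subunit genes had a member (upper limit 30.85%). Of these, 1 had a summit with a fold of 8 or more at an end, 4 had only low summits and 5 had none.

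Families of more restricted use spread over a similar range. Forkhead transcription factor genes had members in 9 of 38 (23.7%, 11.4 to 40.2), led by foxf1 (5.84), foxk2 and foxl1 (both 5.69). Genes of znf-named zinc finger proteins had 27 of 110 (24.5%, 16.8 to 33.7), with 6.29 at znf143, which had a member at both ends, and at znf750. Wnt ligand genes had 5 of 19 (26.3%), with wnt2, wnt3a and wnt5b at 4.49 each. Matrix metalloproteinase genes, whose products cut extracellular matrix, also had 5 of 19 (9.15 to 51.2), led by mmp16 at 5.84, mmp15 at 5.09 and mmp17 at 4.94, which encode membrane-bound enzymes.

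Voltage-gated channel genes had members in 10 of 50 (interval 10.03 to 33.7%), among them the potassium channel genes kcnh7 (6.44) and kcng4 (5.99). Solute carriers, the largest family, had 46 of 258 (17.8%, 13.4 to 23.1), with 7.04 at slc36a4 and slc7a3. Collagen genes had 4 of 37 (10.8%, 3.03 to 25.4), with col5a3 at 5.09, col18a1 at 4.34 and col6a1 at 4.19. Glutamate receptor genes had 1 of 23 (grik2 at 4.04), with an interval from 0.11 to 21.95% that includes the 16.1% of all genes. Of the others in that family, 1 had a summit with a fold of 8 or more and 1 a wide peak. Low shares were 1 of 35 olfactory and taste receptor genes (tas2r13, 5.84) and 0 of 23 cadherin genes (upper limit 14.8%). Of the cadherin genes, 20 had no summit of any fold within 500 bp of an end. In flanking windows, cadherin gene ends had a focal summit in 1.09% of cases and olfactory and taste receptor genes in 5.71%, against 4.23% over all ends. Flanking shares of the other lists and families are not given here. Whether their shares exceed the local density of focal peaks is therefore not shown.

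The remaining families had shares from 6.67% (claudins) to 28.6% (myosin heavy chains). Sox genes had 2 of 13 (sox7 at 5.09 and sox11 at 4.19), FGF ligand genes 2 of 17, integrin genes 3 of 26, cytochrome P450 genes 5 of 33, protocadherin genes 3 of 20, claudin genes 1 of 15 (cldn4 at 5.69) and myosin heavy chain genes 2 of 7. Interleukin and chemokine genes had 4 of 35, il6 at 5.39, il17d, il17b and the receptor gene il4r, which the symbol pattern also took. Anaphase-promoting complex genes had 2 of 12 and chaperonin genes 1 of 8 (cct8 at 4.94).

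Members lay on all 10 chromosomes, from 133 on chromosome 10 to 475 on chromosome 1. The share of gene ends occupied was highest on chromosome 6 (10.1%, 9.09 to 11.2) and lowest on chromosome 7 (6.85%, 6.08 to 7.68). The flanking windows of these chromosomes stood closer together, at 4.54% and 4.03%. Chromosome 10 had the densest focal peaks, 57.6 per Mb against 33.2 to 39.6 on the others. Its gene ends were occupied in 7.93% of cases (6.73 to 9.27) against 6.41% of flanking windows, the smallest ratio of the 10. Median member folds were 4.49 or 4.64 on every chromosome.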

How the data were processed

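ATAC-seq peak lists of 3 urostyle libraries of Xenopus tropicalis, 1 per stage, were deposited. Per the submitters' processing notes the tools included Genrich, MACS2, Picard and Bowtie2. What each did, with which version and genome build, and whether reads were shifted is not given in the sources. In the deposited stage 65 list the signal column is a ratio, the fold of summit pileup over background, given beside a −log10 p and −log10 q and a score of 10 times the −log10 q. The deposited stage 56 and stage 61 lists hold a signal area instead, and they served only to count peaks (322995 in all 3). The stage 65 folds below 50 were whole multiples of a step in 100% of peaks (tolerance 0.01). If a pseudocount of 1 is taken in both terms of the ratio, this gives a whole count at a summit, called fragments here. The members' deposited −log10 p then matches a Poisson tail with the background as its mean, with a largest difference of 4.54e-05.

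Gene ends came from the RefSeq table of UCB_Xtro_10.0, and coordinates are 1-based. The build of the stage 65 list is not stated. Its chromosomes are named as in the table, and use of the table's build is an assumption behind every position. The library's total reads are unknown. Densities were counted in Python 3.11.15 (numpy 2.4.6, pandas 2.3.3, scipy 1.17.1) with code tested on simulated summits. Flanks were the positions 5 to 10 kb from the same ends, or windows of 500 bp to each side of a point 7.5 kb from an end. Shares carry exact Clopper-Pearson intervals, and density ratios log-scale Poisson intervals. These treat summits as independent.

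Members, gene lists and families were chosen with earlier results of these data known. Named genes were those with the highest folds, up to 4 per list and up to 3 per family, 5 facing pairs with ties and 5 genes occupied at both ends. Genes named for a shared peak, for not belonging to their family or for having no member were chosen after their values were seen. Some genes this rule names are not reported here. As the table has no strand and no sequence was used, the planned split into starts and finishes, the CpG content, the motif search and the printing of promoters were not carried out. Pairs of starts were replaced by pairs of facing ends.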

Additional observations from a re-analysis of the deposited data

How the results depend on the processing

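Each of 8 results was recomputed under 6 other settings, and 23 of the 48 values stayed within the main interval or, for counts, within 1.5 times. Results on the gene's side and the listed genes were added after seeing the data. With windows of 250 bp and 1000 bp in place of 500 bp, members numbered 1786 and 4965, were 3.58% and 9.94% of focal peaks and reached 9.34% and 24.5% of genes. The density ratio of ends over flanks, 1.97, became 2.23 and 1.60. With 1000 bp, 60.7% of summits lay inside in place of 66.2% (every end counted). The share of ends with a summit on the gene's side became 5.07% and 10.7% with the next gene within 200 bp, and 2.31% and 7.04% with the next gene at 1000 to 5000 bp (7.80% and 4.28% in the report's setting). With folds from 5, members fell to 962, at 5.08% of genes, and these side shares were 2.34% and 1.36%. With widths under 1000 bp, 11.3% of genes were reached and the side shares were 5.40% and 3.21%. With symbol-bearing genes only, members were 5.24% of focal peaks and reached 18.5% of genes, at a density ratio of 2.36. Listed genes with a member fell from 41 to 22 with 250 bp and to 17 with folds from 5. In every setting ends were denser than flanks, more summits lay inside than outside, and close neighbours had the higher share. No paired analysis was possible because each stage has 1 library. Other settings for the start share, the CpG content and paired starts were not run, as strand and sequence were not used here. Depth limits single peaks: 26 to 52 fragments do not rank members, and a gene end without a member may carry a weaker site.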

Other observations

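Ends of other kinds of genes were looked at in the same way, leaving out those within 1000 bp of a protein-coding gene end, since they would share its peaks. Their flanking windows were not cleared of protein-coding gene ends, where focal summits are denser. A share near or below its flanking windows is therefore not read as a lack of excess or as a depletion. Long noncoding RNA genes had a focal summit at 4.82% of 3961 ends (4.18 to 5.54), against 4.89% of flanking windows, and inside and outside shares of 2.52% and 2.35%. Pseudogenes had 5.01% of 778 ends (3.59 to 6.79) against 3.98%. Genes of tRNAs, which RNA polymerase III transcribes from promoters within the gene, had 3.04% of 4578 ends (2.56 to 3.58) against 3.68%. Small nucleolar RNA genes, many of which lie in introns, had 1.98% of 605 ends (1.03 to 3.44) against 5.95%, small nuclear RNA genes 1.35% of 1186 ends against 1.39%, and miRNA genes 2.27% of 353 ends (0.983 to 4.42) against 3.97%. Many of these genes are shorter than the window, so both ends can share a peak, and copies of tRNA and small nuclear RNA genes are alike in sequence. How reads with several matches were treated is unknown here, and its part in these shares was not tested.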
